A study of Mus musculus with 6 samples.

Results

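Hras, Nras, Araf, Braf, Map2k1, Map2k2 and Mapk3 code for proteins of the Ras, Raf, Mek and Erk tiers of the mitogen-activated protein kinase pathway. These 7 genes were taken as a named list, chosen with earlier results of these data known, and they were 7 of the 21966 genes in the expression table. Ras proteins are small GTPases at the inner face of the cell membrane that bind Raf kinases when loaded with GTP. Raf kinases then phosphorylate Mek kinases, and Mek kinases phosphorylate Erk kinases, which act on proteins in the cytoplasm and the nucleus. In the colonic epithelium this pathway carries growth factor signals, activating mutations in it are common in colorectal cancer, and Group I Paks can phosphorylate kinases of the Raf and Mek tiers.

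RNA-seq was used to ask how blocking the activity of Group I Paks affects transcription in mouse colon tumor cells. PID+ cells came from adenomas of CDX2P-NLS-Cre;APCΔ/+;ROSA26-PID mice, in which Cre released expression of the Pak inhibitor domain (PID), fused to GST, from the Rosa26 locus. PID- cells came from adenomas of CDX2P-NLS-Cre;APCΔ/+ mice without the PID allele. Both groups therefore carried the Cre transgene, driven by the CDX2 promoter in the intestine, and the deletion of 1 Apc allele, and they differed in the PID allele. The cells were primary colonic lines, 3 for each genotype. The sample labels give mice 4, 7 and 26 for PID+ and mice 1, 2 and 3 for PID-, and describe the PID- samples as normal and untreated. The methods, in contrast, speak of tumor cell lines and of repeated sequencing runs, 3 per condition. The PID+ numbers are also those of the PID+ lines in the study, but the PID- lines have other numbers there, so whether the PID- samples are those lines could not be checked.

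The reads of a condition were merged before expression was calculated. Each gene therefore has 1 pooled FPKM value (fragments scaled by the length of the transcript and the size of the library) in PID+ and 1 in PID- cells, with the lower and upper bounds that CuffDiff gave. There is no value for a single line and no spread between lines, so no difference below has a replicate check and no test was run. A difference is given as log2 of the ratio of FPKM + 1 in PID+ over PID- cells, a scale on which the change of genes with low FPKM is understated. Both conditions had an OK status for 21959 genes, all 7 named above among them. A mean FPKM of 5 or more was reached by 9341 genes, called expressed genes here. In them the deposited interval extended to either side of the FPKM by a median of 79.8% in PID+ and 78.5% in PID- cells.

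Fragment numbers were estimated from the low values. In genes with a single transcript, low FPKM values multiplied by the transcript length less 190 bases fell on steps. Of these products, 89.3% in PID+ cells (862 genes) and 90.8% in PID- cells (800 genes) lay within 0.1 of a whole number of steps, where 20% would do so without steps. A step was 1.38 times as large in PID+ as in PID- cells, so that an equal FPKM rested on more fragments in PID- cells. The size of a step holds both the depth and the scaling of the deposited values, so the fragment numbers that follow are approximate. Map2k1, which has 1 annotated protein-coding transcript, was estimated at 10506 fragments in PID+ cells, for which counting alone gives a 95% half-width of 1.91%. In the other 6 genes, with several transcripts, the estimate was lowest for Nras, at 395 fragments if every fragment came from its shortest protein-coding transcript, with a counting half-width of 9.86%. The deposited intervals of the 7 genes had half-widths from 56.5% to 114% of the FPKM and were therefore much wider than counting error.

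Marker genes were read first, to compare the label of colon tumor epithelium with the RNA. Of 10 epithelial markers, 7 in PID+ and 8 in PID- cells had an FPKM of at least 1. Their summed FPKM was 9083 for PID+ and 4965 for PID- cells, with Krt19 the highest by the mean of the conditions. Cdx2 went against this sum, at 0.542 in PID+ and 8.04 in PID- (log2 difference -2.55), Vil1 was at 0.175 and 0.0614, and Cdx1 was at 0 in both. Of 8 fibroblast markers, 1 in PID+ and 4 in PID- cells reached an FPKM of 1. Their summed FPKM was 3.0 for PID+ and 34.1 for PID- cells, Col1a1 was the highest by the mean of the conditions, Dcn, Lum and Thy1 were at 0 in PID+ cells, and Lum was at 0 in PID- cells. Leukocyte markers (6 genes) summed to 29.2 and 28.8, nearly all of it Cd14, with Cd3e at 0 in both conditions. Endothelial markers (5 genes) summed to 3.95 and 1.41, with Kdr the most abundant, and smooth muscle markers (4 genes) to 4.75 and 10.03, with Acta2 the most abundant. The conditions thus differed in the summed FPKM of epithelial and of fibroblast markers, as deposited. Of these markers only Col1a2, at 0.0654 in PID+ and 11.9 in PID- cells, had deposited intervals that lay apart. The part of this marker difference in the values below was not tested. In such bulk samples, fewer cells of a type and less RNA per cell cannot be told apart.

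Among the 7 genes, Hras had the largest excess in PID+ cells and Mapk3 the largest deficit, and as deposited the genes of the Raf and Mek tiers differed by less than 1.5-fold. The log2 difference was positive for 3 genes and negative for 4, with a median of -0.14, beside a median of -0.0012 over the 9341 expressed genes and quartiles of -0.33 and 0.32. These signs depend on the scaling: with Gapdh or Actb set equal in the conditions, Nras and Braf also had negative differences, and with the median of the chromosome subtracted Araf had a positive and Braf a negative one. Hras was the only one of the 7 at least 1.5-fold higher in PID+ cells, where 13.0% of the 9341 genes were, and Mapk3 was the only one at least 1.5-fold lower, where 13.4% were. With 1 of 7 on either side, the counts lay near these shares. The counts moved with the scaling, as did the shares: with equal Gapdh 0 of the 7 were higher and 4 lower, where 3.60% and 49.9% of the 9341 genes were, and with equal Actb 1 was higher and 3 lower, where 5.38% and 33.9% were. None of the 7 differed 3-fold, where 1.54% of the 9341 genes were that much higher and 2.37% that much lower. None of the 7 had deposited intervals that lay apart, where 1.35% of the 9341 genes did.

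**Figure D1:**
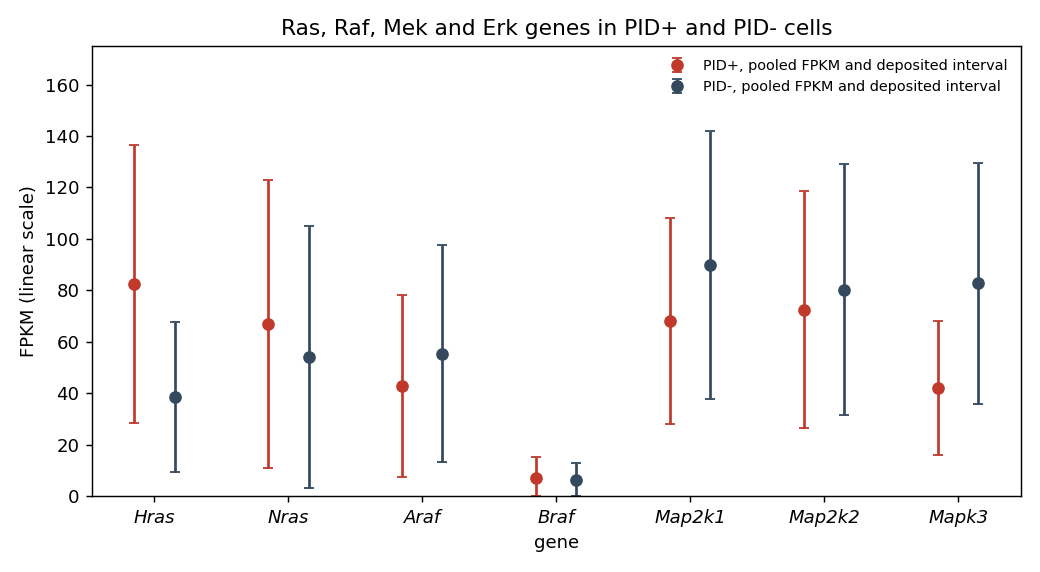
Pooled FPKM (y axis, linear scale) of the 7 genes (x axis) in PID+ cells (red) and PID- cells (dark blue), with vertical bars for the deposited CuffDiff interval. Hras was at 82.6 in PID+ and 38.5 in PID- cells and Mapk3 at 42.0 and 82.8, and the bars of the conditions overlap for each gene.

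Hras (ENSMUSG00000025499.14, minus strand of chromosome 7 of GRCm38 from 141189105 to 141194005) codes for a Ras GTPase. Its FPKM was 82.6 in PID+ cells, with a deposited interval from 28.5 to 137. In PID- cells it was 38.5, with an interval from 9.36 to 67.7. The intervals overlapped, but the PID+ value lay above the whole PID- interval, whereas the PID- value lay inside the PID+ interval. The ratio of the FPKM values was 2.14 and the log2 difference 1.08, and 4.30% of the 9341 genes had a larger one. Under the 7 alternatives tried, the difference stayed positive, from 0.46 with equal Gapdh to 1.10 with a pseudocount of 0.1.

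Nras (ENSMUSG00000027852.11, plus strand of chromosome 3 from 103058285 to 103067914) codes for another Ras GTPase. Its FPKM was 66.9 in PID+ cells (interval from 11.0 to 123) and 54.0 in PID- cells (interval from 3.19 to 105). Each value lay inside the interval of the other condition, and the intervals overlapped over most of their length. The log2 difference was 0.30, and 26.2% of the 9341 genes had a larger one. It became -0.31 with equal Gapdh and -0.10 with equal Actb, so no direction can be given for Nras.

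On the FPKM scale, which is per length of transcript, Hras made up 55.2% of the sum of Hras and Nras in PID+ and 41.6% in PID- cells. Hras was thus the more abundant of the pair in PID+ cells and the less abundant in PID- cells. The deposited bounds would allow 18.8% to 92.5% in PID+ and 8.19% to 95.5% in PID- cells, so the order of the pair was not resolved in either condition. The Hras to Nras ratio, 1.23 in PID+ and 0.714 in PID- cells, differed 1.73-fold, which does not depend on the scaling of the conditions.

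Araf (ENSMUSG00000001127.9, plus strand of chromosome X from 20797814 to 20860519) codes for a Raf kinase. Its FPKM was 42.8 in PID+ cells (interval from 7.50 to 78.2) and 55.4 in PID- cells (interval from 13.1 to 97.7). The intervals overlapped and each held the value of the other condition. The log2 difference was -0.36, and 23.3% of the 9341 genes had a smaller one. Genes of the X chromosome were shifted the same way, and after subtraction of their median the difference was 0.09. With equal Gapdh it was -0.97 and with equal Actb -0.77, past 1.5-fold in both, beside medians of -0.58 and -0.39 over the 9341 genes. An exon of Araf overlaps one of Syn1, whose FPKM was low, 1.40 in PID+ and 2.82 in PID-. The library kit did not mark strand, so fragments from the overlap cannot be assigned to either gene.

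Braf (ENSMUSG00000002413.12, minus strand of chromosome 6 from 39603237 to 39725463), the other Raf kinase of the list, was the least abundant of the 7 in both conditions. Its FPKM was 7.16 in PID+ cells (interval from 0 to 15.3) and 6.25 in PID- cells (interval from 0 to 12.8). Both intervals reached 0, overlapped and held the value of the other condition. The log2 difference of 0.17 became -0.36 with equal Gapdh, -0.19 with equal Actb and -0.17 with the chromosome median subtracted, and had no fixed sign. Braf shares exon sequence with Ndufb2, which was more abundant (43.0 in PID+ and 42.8 in PID-), so the low level of Braf is uncertain in this respect. Only 7.31% of the 9341 genes had a lower mean FPKM than Braf, against 79.3% for Araf.

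Araf supplied 85.7% of the summed FPKM of Araf and Braf in PID+ and 89.9% in PID- cells. In PID- cells the deposited intervals of Araf and Braf lay apart, with the lower bound of Araf at 13.1 and the upper bound of Braf at 12.8. In PID+ cells they overlapped. The ratio of Araf to Braf was 5.99 in PID+ and 8.86 in PID- cells.

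Map2k1 (ENSMUSG00000004936.8, minus strand of chromosome 9 from 64185770 to 64253631) codes for the kinase Mek1. Its FPKM was 68.2 in PID+ cells (interval from 28.1 to 108) and 89.9 in PID- cells (interval from 37.9 to 142). The intervals overlapped and each held the value of the other condition. The log2 difference was -0.39, and 21.8% of the 9341 genes had a smaller one. It was negative under all 7 alternatives and passed 1.5-fold with equal Gapdh (-1.01) and equal Actb (-0.80), settings that moved the median of the 9341 genes to -0.58 and -0.39.

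Map2k2 (ENSMUSG00000035027.14, plus strand of chromosome 10 from 81105915 to 81133975) codes for Mek2. Its FPKM was 72.5 in PID+ cells (interval from 26.4 to 119) and 80.3 in PID- cells (interval from 31.6 to 129). As deposited, it had the smallest log2 difference in size of the 7 genes, -0.14, and its intervals covered nearly the same range. With equal Gapdh it was -0.76, past 1.5-fold, and Nras, Braf and Hras were then smaller in size. Map2k1 made up 48.5% of the summed FPKM of Map2k1 and Map2k2 in PID+ and 52.8% in PID- cells, and the deposited bounds left the order of the pair unresolved in both. Summed FPKM of the pair was 140.7 in PID+ and 170.2 in PID- cells.

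Mapk3 (ENSMUSG00000063065.10, plus strand of chromosome 7 from 126759601 to 126765819) codes for Erk1, a kinase at the end of the cascade. Its FPKM was 42.0 in PID+ cells, with a deposited interval from 15.9 to 68.1. In PID- cells it was 82.8, with an interval from 36.0 to 129.5. The intervals overlapped, but the PID- value lay above the whole PID+ interval, whereas the PID+ value lay inside the PID- interval. The FPKM was 1.97-fold lower in PID+ cells and the log2 difference was -0.96, and 5.66% of the 9341 genes had a smaller one. Under the 7 alternatives the difference stayed negative, from -1.57 with equal Gapdh to -0.96 as deposited.

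In PID+ cells the order of FPKM from high to low was Hras, Map2k2, Map2k1, Nras, Araf, Mapk3 and Braf. In PID- cells it was Map2k1, Mapk3, Map2k2, Araf, Nras, Hras and Braf. Hras went from rank 6 in PID- to rank 1 in PID+ cells, and Mapk3 from rank 2 to rank 6. Of the 21 pairs of genes, 4 in each condition had deposited intervals that lay apart, and all of these had Braf as the lower gene. In PID+ cells the other genes of these pairs were Hras, Map2k1, Map2k2 and Mapk3, and in PID- cells they were Araf, Map2k1, Map2k2 and Mapk3. Neighbours in the order therefore did not differ beyond their intervals, except Mapk3 and Braf in PID+ cells.

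The ratio between a pair of genes within a condition does not depend on how the conditions are scaled to each other. Over the 21 pairs, the ratio that differed most was that of Hras to Mapk3, at 1.97 in PID+ and 0.466 in PID- cells, a 4.22-fold difference. From the most extreme combinations of deposited bounds, this ratio could lie between 0.418 and 8.59 in PID+ and between 0.0722 and 1.88 in PID- cells, ranges that overlap. The ratio of Hras to Map2k1 was 1.21 in PID+ and 0.429 in PID- cells. At the other end, the ratio of Araf to Map2k1 was 0.629 and 0.616, a difference of 1.02-fold.

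Whole chromosomes differed between PID+ and PID- cells, so each gene was set beside the expressed genes of its chromosome. Hras and Mapk3 lie on the same chromosome, 14.4 Mb apart, and moved in opposite directions. The 646 genes of chromosome 7 had a median log2 difference of 0.25. Less this median, the difference was 0.83 for Hras, with 8.36% of the genes of chromosome 7 above it, and -1.21 for Mapk3, with 4.49% below it. Within 5 Mb on either side, 69 genes around Hras had a median of 0.34 and 85 genes around Mapk3 a median of 0.22, so the difference less the local median was 0.74 for Hras and -1.18 for Mapk3.

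The other 5 genes lay closer to their chromosomes. Nras, at 0.30, was 0.05 above the median of the 451 genes of chromosome 3. Araf, at -0.36, was 0.09 above that of the 286 genes of the X chromosome, which was -0.45. Braf was below the median of the 413 genes of chromosome 6, which was 0.34, by a difference of -0.17. Map2k1 was below that of the 532 genes of chromosome 9, by -0.31, and Map2k2 below that of the 460 genes of chromosome 10, by -0.09. Of these 5, only Map2k1 lay outside the middle 50% of the genes of its chromosome.

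**Figure D2:**
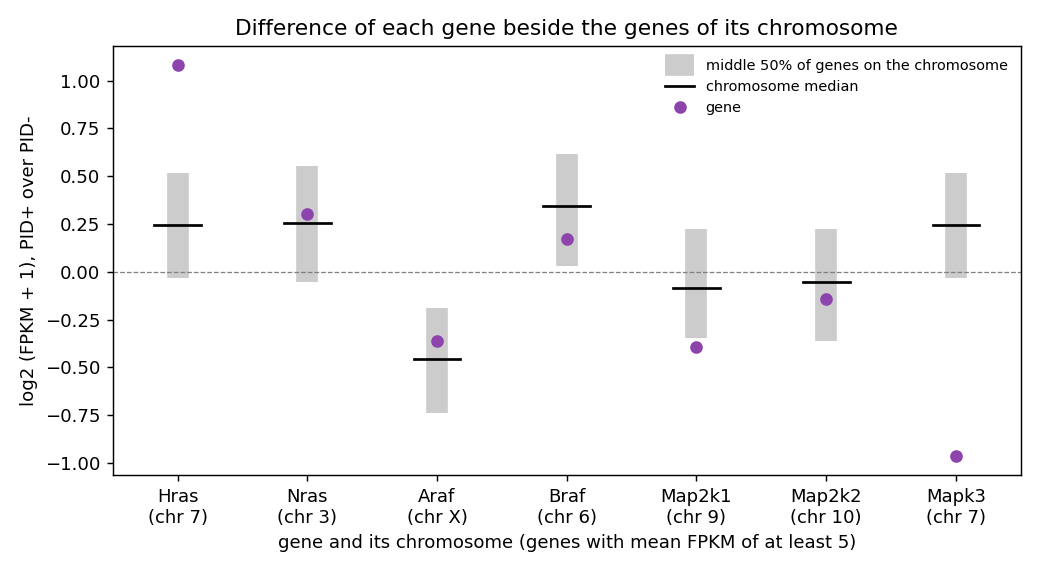
Log2 difference of FPKM + 1, PID+ over PID- (y axis), for each of the 7 genes (purple points), with the median (black line) and the middle 50% (grey bar) of expressed genes (mean FPKM of 5 or more) on its chromosome. Hras at 1.08 and Mapk3 at -0.96 lie far from the chromosome 7 median of 0.25 on opposite sides; with equal Gapdh or Actb the points of Nras and Braf would be below 0.

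Reads of length 50 could be shared between genes of similar sequence, so the annotated transcripts of the 7 genes were searched for 50-base windows that also occur in transcripts of other genes. Hras had none. In the other 6 genes the share of such windows ran from 0.0428% in Mapk3 to 1.13% in Araf. All of the shared windows of Braf were in Ndufb2, and Map2k1 and Map2k2 shared 7 windows with each other.

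The genes nearest to the 7 over the 2 conditions were found by the Euclidean distance of log2 FPKM + 1. Topbp1 was nearest to Hras, with 82.2 in PID+ and 38.2 in PID-, and only 3 genes lay within a distance of 0.1 of Hras. For Mapk3 the nearest gene was Aldh18a1, at 42.9 and 83.7, and 4 genes lay within 0.1. Nras was nearest to Cyfip1, Araf to Ube2r2, Braf to Trmt11, Map2k1 to Cop1 and Map2k2 to Csnk1d, and these 5 had from 12 to 43 genes within 0.1. With 2 values per gene, such likeness says no more than that the levels were similar.

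Around the 7 genes, 98 other genes of the pathway were taken from lists of regulators, relatives and targets, and all of them were measured. At 1.5-fold, 11 of the 98 were higher and 16 lower in PID+ cells, that is 11.2% and 16.3%, where 8.18% and 8.84% of all 21959 genes were. At 3-fold, 3 were higher and 1 lower, where 1.04% and 1.72% of all genes were. None had deposited intervals that lay apart, where 0.729% of all genes did. Their median log2 difference was -0.12, beside a median of 0 over all genes. Of the 77 that were expressed by the rule above, 7 were at least 1.5-fold higher and 13 at least 1.5-fold lower, or 9.09% and 16.9%, where 13.0% and 13.4% of the 9341 expressed genes were. The share of higher genes thus lay above that of all genes over the whole list and below that of expressed genes over its expressed members. The split depends on the scaling, as does the share of all genes. With equal Gapdh 6 of the 98 were higher and 60 lower, where 2.73% and 26.5% of all genes and 3.60% and 49.9% of expressed genes were. With equal Actb 6 were higher and 36 lower, where 3.88% and 18.9% of all genes and 5.38% and 33.9% of expressed genes were. The counts by list that follow are at 1.5-fold and, where no scaling is named, as deposited. They are small numbers, to be read against the shares of 8.18% higher and 8.84% lower over all genes. As most of the listed genes were expressed, the shares of 13.0% and 13.4% over expressed genes also apply.

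Upstream of Hras and Nras, exchange factors load Ras with GTP, and adaptors bring them to receptors. Of 12 such genes, 2 were at least 1.5-fold higher and 2 lower in PID+ cells. With equal Gapdh 2 were higher and 5 lower, where 26.5% of all genes and 49.9% of expressed genes were lower. With equal Actb 2 were higher and 4 lower, where 18.9% of all genes and 33.9% of expressed genes were lower. The adaptor Grb2 had the highest mean of the conditions, at 48.0 in PID+ and 44.9 in PID- (where Shc1 was higher, at 46.4), and its small log2 difference of 0.09 was negative with equal total FPKM, Gapdh or Actb. The exchange factor Sos2 had the most negative difference among genes with an FPKM of at least 1, with 16.4 in PID+ and 30.6 in PID- cells (log2 difference -0.86). Rasgrf2 had the most positive, with 2.65 and 0.603 (log2 difference 1.19).

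Ras GTPase-activating proteins switch Ras off. Of 10 such genes, 0 were at least 1.5-fold higher and 2 were lower, counts that at 8.18% and 8.84% of all genes would be about 1 each, with Rasa3 at 12.3 in PID+ and 31.8 in PID- cells (log2 difference -1.30). Rasa1, with the highest mean of the conditions, was at 30.8 and 35.0. With equal Gapdh 4 of these 10 were lower, where 26.5% of all genes and 49.9% of expressed genes were, and with equal Actb 2. Enzymes and carriers that bring Ras to membranes had 0 of 9 members higher and 2 lower as deposited. These counts were also near the shares of 13.0% and 13.4% over expressed genes, which all 9 were. Among the 2 was Fnta, a subunit of the farnesyltransferase that lipidates Hras and Nras, at 28.9 and 56.6 (log2 difference -0.94). Golga7, which takes part in the palmitoylation of Hras and Nras, was the most abundant of that list, at 61.6 and 92.1. With equal Gapdh 8 of these 9 were lower and with equal Actb 5, where 49.9% and 33.9% of expressed genes were. Among 10 Ras-related GTPases, 0 were higher and 1 was lower, which was Mras at 3.62 in PID+ and 10.1 in PID- cells (log2 difference -1.27), and the most abundant was Rheb at 128 and 133. With equal Gapdh 8 of the 10 Ras-related GTPases were lower and with equal Actb 5, where 49.9% and 33.9% of expressed genes were.

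Of 19 genes for scaffolds and regulators of the Raf, Mek and Erk kinases, 1 was at least 1.5-fold higher and 1 lower as deposited. Beside these counts stand 8.18% and 8.84% of all genes, and 13.0% and 13.4% of expressed genes. The median log2 difference was -0.05. With equal Gapdh, 0 were higher and 14 lower, where 49.9% of expressed genes were lower, and the median was -0.65, beside -0.58 for expressed genes. The higher gene was Cnksr1, at 12.0 in PID+ and 6.72 in PID- cells (log2 difference 0.75), and the lower one was Cnksr3, at 2.36 and 8.80 (log2 difference -1.55). Ywhae, a 14-3-3 protein of the kind that binds Raf kinases, was the most abundant, with an FPKM of 450.0 and 445.

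Beside Map2k1 and Map2k2, 5 other MAP kinase kinases had 0 members at least 1.5-fold higher and 1 lower, which was Map2k6 at 3.05 in PID+ and 6.68 in PID- cells (log2 difference -0.92). With equal total FPKM, Gapdh or Actb, 3 of the 5 were lower, where 17.2%, 49.9% and 33.9% of expressed genes were. Beside Mapk3, 11 other MAP kinases had 5 members higher and 0 lower, beside 8.18% and 8.84% of all genes, and 3 higher and 4 lower with equal Gapdh, beside 3.60% and 49.9% of expressed genes. Mapk15 had the most positive log2 difference, 1.77, at 5.18 in PID+ and 0.815 in PID-. Mapk12, named after its values were seen because it also passed 3-fold, was at 16.9 and 4.88 (log2 difference 1.60). Mapk15 and Mapk12 both lie on chromosome 15, where the median log2 difference of expressed genes was 0.19. With this median subtracted, Mapk15 was at 1.58 and Mapk12 at 1.42, both just below 3-fold or less. Mapk6, the most abundant, was at 70.7 and 74.6. With equal Gapdh the log2 difference was -1.57 for Mapk3, 1.02 for Mapk12 and 1.26 for Mapk15.

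Kinases that Erk activates had 1 of 8 members at least 1.5-fold higher and 2 lower. The higher call was lost with equal Gapdh or Actb, and both lower calls were lost with the chromosome median subtracted. The higher one, named after its values were seen, was Rps6ka6, at 0.555 in PID+ and 0.00954 in PID-. Mknk1 had the most negative difference, at 7.94 in PID+ and 15.4 in PID- (log2 difference -0.88), and Mknk2 was the most abundant, at 73.3 and 86.2. With equal Gapdh 5 of the 8 were lower, where 26.5% of all genes and 49.9% of expressed genes were. With equal Actb 4 were lower, where 18.9% of all genes and 33.9% of expressed genes were.

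Among genes whose FPKM reached 1 in a condition, the most positive differences of several lists were under 1.5-fold. These were Dab2ip (0.24) among the GTPase-activating proteins, Rras2 (0.23) among the Ras-related GTPases and Rce1 (0.16), a protease that trims lipidated Ras, among the genes of membrane targeting, and each was negative with equal Gapdh or Actb. The same held for Map2k3 (0.26) and the most abundant other MAP kinase kinase, Map2k4 (0.24), and for Rps6ka4 (0.06) among the kinases that Erk activates. Mapk7, also known as Erk5, had the most negative difference of the other MAP kinases with an FPKM of at least 1, at -0.15, with 12.0 in PID+ and 13.4 in PID-.

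Erk feedback genes are transcribed in response to Erk activity, and many of their products dampen the pathway. Of 11 such genes, 2 were at least 1.5-fold higher and 4 lower in PID+ cells, and the median log2 difference was -0.23. Beside these counts stand 8.18% and 8.84% of all genes, and 13.0% and 13.4% of expressed genes. As deposited 6 of the 11 differences were negative, and with equal Gapdh or Actb 9 were. The count of higher genes was then 1, where 3.60% (Gapdh) and 5.38% (Actb) of expressed genes were higher. That of lower genes was 6 with equal Gapdh and 5 with equal Actb, where 49.9% and 33.9% of expressed genes were lower. Dusp5, a phosphatase that acts on Erk in the nucleus, had an FPKM of 52.2 in PID+ cells (interval from 22.5 to 81.8) and 14.8 in PID- cells (interval from 4.41 to 25.2), with a log2 difference of 1.75. Its intervals overlapped by a small margin. Dusp6, a cytoplasmic Erk phosphatase with the highest mean of the conditions in the list though the highest value in neither, was at 49.4 and 27.2 (log2 difference 0.84). Spry4, an inhibitor of the path from receptors to Erk, was at 1.06 in PID+ and 3.32 in PID- cells (log2 difference -1.07). The other lower genes, named after their values were seen, were more abundant than Spry4. In PID+ and PID- cells, Dusp4 was at 12.6 and 23.5 (log2 difference -0.85) and Spred1 at 14.4 and 28.7 (-0.95). Spred2 was at 20.7 and 42.1 (-0.99). The differences of Dusp5, Dusp6 and Spry4 kept their sign under each of the scalings tried, but that of Dusp6 fell below 1.5-fold with equal Gapdh (0.23) and equal Actb (0.44).

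Of the 3 Group I Paks, which the PID binds and inhibits, 0 were at least 1.5-fold higher and 1 lower, and the intervals of all 3 overlapped between the conditions. With equal Gapdh or Actb all 3 were at least 1.5-fold lower, where 49.9% and 33.9% of expressed genes were. With the chromosome median subtracted 2 of the 3 were, where 11.5% of expressed genes were. Pak1 was at 17.6 in PID+ and 23.4 in PID- cells, and Pak2, with the highest mean of the conditions, at 39.5 and 52.6. The log2 difference of Pak2 was -0.40 as deposited and 0.10 with the median of its chromosome subtracted. Pak3 was at 14.7 (interval from 0 to 35.2) and 75.9 (interval from 0 to 171.9), above Pak2 in PID- cells, and was the 1 gene of the 98 at least 3-fold lower, with a log2 difference of -2.29.

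**Figure D3:**
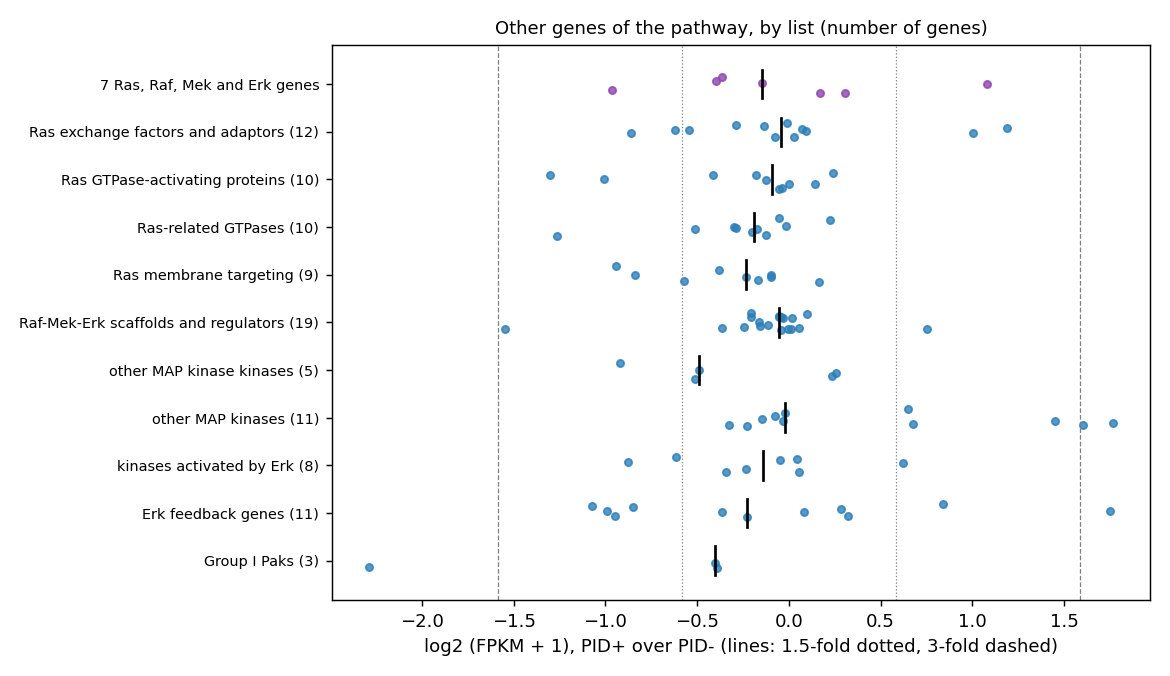
Log2 difference of FPKM + 1, PID+ over PID- (x axis), for the 7 genes (purple) and the 98 other genes of the pathway by list (blue points, 1 per gene, moved up or down at random within a row), with the median of each list as a black bar and lines at 1.5-fold (dotted) and 3-fold (dashed). Past 3-fold lie Mapk15, Mapk12 and Dusp5 on the higher side and Pak3 on the lower side. With equal Gapdh, 0 of the 98 genes would pass 3-fold on the higher side and 4 on the lower side.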

How the data were processed

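RNA was poly(A) selected and made into libraries with a kit that does not mark strand. The authors cleaned the reads with CutAdapt, checked them with FastQC, aligned them with TopHat and Bowtie2 to GRCm38.p3 and protein-coding gene models, merged the reads of a condition into 1 alignment, and deposited gene-level FPKM with confidence bounds from CuffDiff (compatible hits normalization). In the table, "treated" was read as PID+ and "untreated" as PID-, after the sample labels. The deposited standard deviations were not used. With pooled values, no test was run. Gene identifiers were matched to symbols and positions in Gencode M21 (GRCm38), with 21734 matched and 232 not; 7 genes without an OK status were left out, and 1 listed marker gene is not reported here. The difference was log2((FPKM + 1)/(FPKM + 1)).

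Members and lists were chosen with earlier results of these data known. Named genes were the 7 listed genes, the nearest gene to each, and from each pathway list the members at least 3-fold different with intervals apart, the most positive and the most negative difference among members with an FPKM of at least 1 in a condition, and the highest mean FPKM of the conditions. The length correction of 190 bases was the best of 31 tried.

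Alternatives were a pseudocount of 0.1, scaling to equal total FPKM, upper quartile, Gapdh or Actb, subtraction of chromosome medians, a minimum mean FPKM of 5, and deposited bounds. Only the 3-fold call was tested on simulated data, with planted changes well above that fold. Python 3.11.15, numpy 2.4.6, pandas 2.3.3 and matplotlib 3.10.9 were used.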

Additional observations from a re-analysis of the deposited data

How the results depend on the processing

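Values are pooled, so no line could be left out, and no paired analysis was possible because no result comes from a test. The log2 differences moved with the scaling. Gapdh was at 2570 in PID+ and 1666 in PID- cells and Actb at 1909 and 1433. Setting either equal therefore moved the median log2 difference of the 9341 genes to -0.58 (Gapdh) or -0.39 (Actb). Equal total FPKM moved it to -0.10. Of genes past 1.5-fold, 49.4% were higher in PID+ cells as deposited, 37.3% with equal total FPKM, 6.72% with equal Gapdh and 13.7% with equal Actb.

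With equal Gapdh, 4 of the 7 genes passed 1.5-fold, their median was -0.76, and the log2 differences were 0.46 for Hras, -0.31 for Nras, -0.97 for Araf, -0.36 for Braf, -1.01 for Map2k1 and -0.76 for Map2k2. With equal Actb, 4 passed, the median was -0.55, and the values were -0.10 for Nras, -0.77 for Araf, -0.19 for Braf and -0.80 for Map2k1. These moves follow from the shift of all genes. Equal total FPKM gave a median of -0.25. With chromosome medians subtracted, Araf was at 0.090 and Braf at -0.17. Subtraction of the median of genes within 5 Mb, chosen after seeing the data, gave 0.16 for Araf and a median of 0.010. Mapk3 stayed at least 1.5-fold lower throughout, Hras at least 1.5-fold higher except with equal Gapdh, and no gene of the 7 reached 3-fold. Differences relative to the chromosome kept sign and side under every pseudocount and scaling tried. For the scalings this was set in advance and is no check. A scaling moves a gene and the median of its chromosome by nearly the same amount, which the subtraction removes.

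Deposited bounds gave Hras 18.8% to 92.5% of the Ras pair in PID+ and 8.19% to 95.5% in PID- cells, Araf 32.9% to 100% of the Raf pair in PID+ and 50.6% to 100% in PID- cells, and Map2k1 19.2% to 80.4% of the Mek pair in PID+ and 22.7% to 81.8% in PID- cells. Of the 98 pathway genes, 4 passed 3-fold, 3 of them with a mean FPKM of at least 5. With a pseudocount of 0.1, 6 were 3-fold higher and 3 lower. The counts were 0 higher and 4 lower with equal Gapdh, and 0 and 3 with equal Actb. They were 2 and 2 with equal total FPKM, and 1 and 1 with chromosome medians subtracted.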
